A study of Drosophila melanogaster with 8 samples.

Results

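The Bicoid (Bcd) binding regions of the X chromosome were all the peaks placed on X in a pair of deposited peak lists, 1 from zelda mutant embryos and 1 from wild-type embryos of Drosophila melanogaster. They numbered 310 of the 2650 peaks of the mutant list and 472 of the 3891 peaks of the wild-type list, or 782 of 6541 in all. Their chromosome alone chose them, so no measured value entered the choice. They were compared with the peaks of arms 2L, 3L and 3R within the same list, which held 1183 mutant and 1804 wild-type peaks.

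Bcd was mapped by chromatin immunoprecipitation and sequencing (ChIP-seq) in whole embryos aged 1 to 3 h from egg laying, with a polyclonal rabbit antibody to Bcd. There were 8 samples: Bcd ChIP from zelda mutants, input from zelda mutants, Bcd ChIP from wild type and input from wild type, with 2 replicates of each. The labels name neither the zelda allele nor whether the maternal or the zygotic product was missing, and they give no sex of the embryos. Whole embryos pool nuclei with different amounts of Bcd. Only 1 list stands for each genotype, so no spread between replicates can be given, and the intervals below cover counting error or the spread over peaks, not biological variation. With X on one side and 3 arms on the other, an exact permutation test over arms cannot give a p under 0.25. No p-value is therefore given, and X is set beside the range of the 3 arms.

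Bcd is a homeodomain transcription factor laid down by the mother as mRNA at the anterior pole. Its protein gradient switches on genes that pattern the head and trunk. Zelda is a maternally supplied zinc finger protein that binds early and opens chromatin at many genes of the first zygotic wave. The X chromosome carries several early patterning genes, among them the gap gene giant (gt), the head genes ocelliless or orthodenticle (oc) and buttonhead (btd), the pair-rule gene runt (run), and zelda (zld) itself, while bcd lies on 3R, as RefSeq places them. It also carries scute (sc) and sisterless A (sisA), whose dose is read to determine sex. Fly females have a pair of X chromosomes and males a single one, whose genes are expressed more strongly to make up for the missing copy. The peaks are on build dm3, for which no gene annotation or sequence was used here, so they are named by position and not by gene, and their sequence was not analysed.

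The X peaks held 67478 tags in the mutant and 521524 in wild type, out of 10060479 mutant and 39154546 wild-type ChIP tags left after removal of duplicates. A tag is 1 aligned read. The wild-type library was thus 3.89 times as deep. Fewer or shorter peaks in the mutant cannot be told apart from its lower depth, so levels are compared between arms of 1 list. Score is −10 times the log10 of the p-value of the peak caller MACS, and fold enrichment sets the ChIP signal over the local background that MACS derives from the control. These, and the false discovery rate (FDR), are values the authors deposited per peak.

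Over all listed peaks, Bcd peaks were sparser on X than on each of the 3 arms, in both lists. In the mutant, X had 13.8 peaks per Mb (exact Poisson 95% interval 12.3 to 15.5), against 14.5 on 2L, 14.7 on 3L and 17.5 on 3R. In wild type, X had 21.1 peaks per Mb (19.2 to 23.1), against 22.6 on 2L, 24.0 on 3L and 24.9 on 3R. The ratio of X to the 3 arms together was 0.883 in the mutant (exact 95% interval 0.776 to 1.001) and 0.881 in wild type (0.795 to 0.976). The mutant interval thus reached 1, while the wild-type interval did not. In both lists the 3 arms differed among themselves by more than X differed from 2L, the nearest. The X interval held the values of 2L and 3L in the mutant and that of 2L in wild type.

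The share of the DNA covered by Bcd peaks was also lower on X. Mutant peaks covered 2.10% of X (470.0 kb), against 2.38 to 2.76% of each of the 3 arms. Wild-type peaks covered 4.88% of X (1094 kb), against 6.47 to 6.51% of each of the 3 arms. The X value lay below all 3 arms in each list.

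Over all peaks, X had the shortest median length of the 4 arms, and in wild type the gap was wide beside the differences among the other arms. The median length of mutant X peaks was 1256.5 bp (order-statistic 95% interval 1186 to 1355), against 1453 bp on 2L, 1362.5 bp on 3L and 1326.5 bp on 3R. The mutant interval of X thus held the value of 3R, and among mutant peaks with an FDR of at most 5% the direction turned, with an X median 1.03 times that of the 3 arms. The median length of wild-type X peaks was 1768 bp (1717 to 1882), against 2250 bp on 2L, 2149 bp on 3L and 2197 bp on 3R, all 3 above the X interval. The wild-type quartiles were shorter on X as well, 1346 and 2766 bp, against 1561 and 3293 bp on the 3 arms together. Wild-type peaks of 5 kb or longer made up 6.36% of X peaks (30 of 472, Wilson 95% interval 4.49 to 8.93) and 9.26% of the peaks of the 3 arms together. The difference of -2.90 percentage points had a Newcombe 95% interval of -5.25 to -0.04. In the mutant such peaks made up 0.968% of X peaks (3 of 310) and 0.845% of those of the 3 arms, a difference of 0.12 percentage points (-0.83 to 2.00). With peaks of that length left out, the wild-type X median was still 0.843 times that of the 3 arms.

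**Figure D1:**
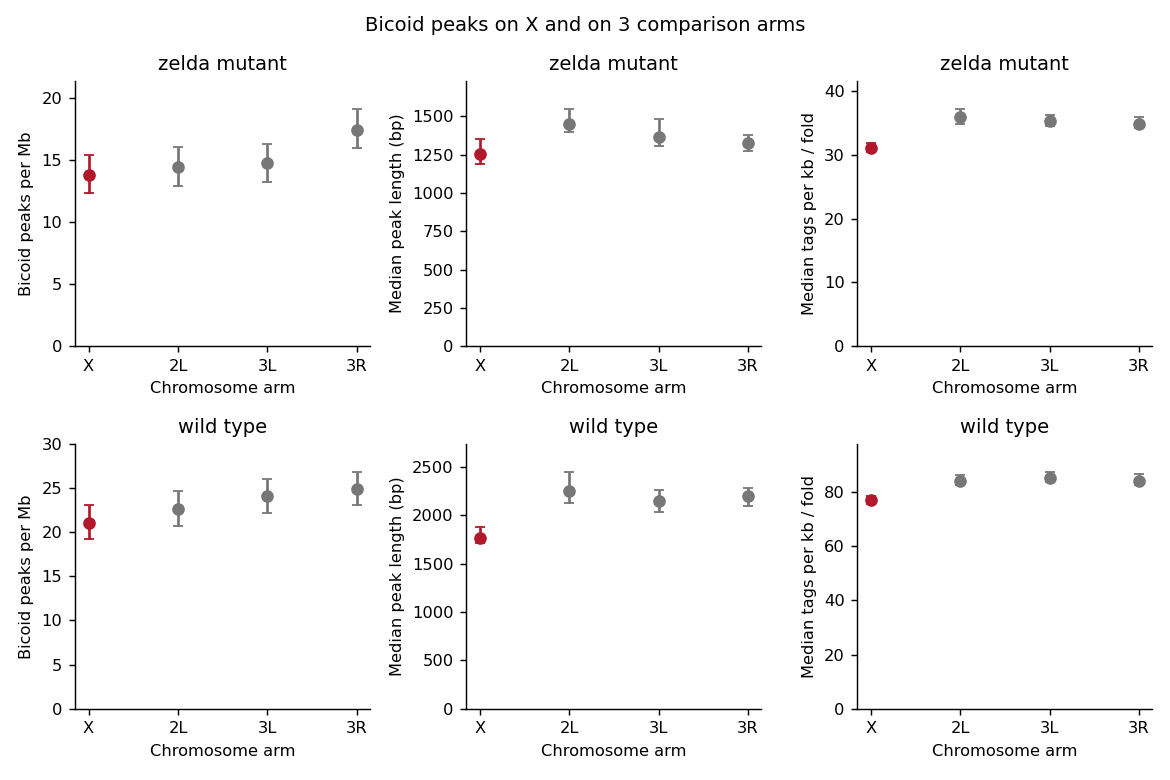
Bicoid peaks on X (red) and on arms 2L, 3L and 3R (grey), with zelda mutant above and wild type below. Points are peaks per Mb with exact Poisson 95% intervals, the median peak length in bp and the median of tags per kb divided by fold, both with order-statistic 95% intervals over peaks; X is the lowest point in all 6 panels.

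**Figure D2:**
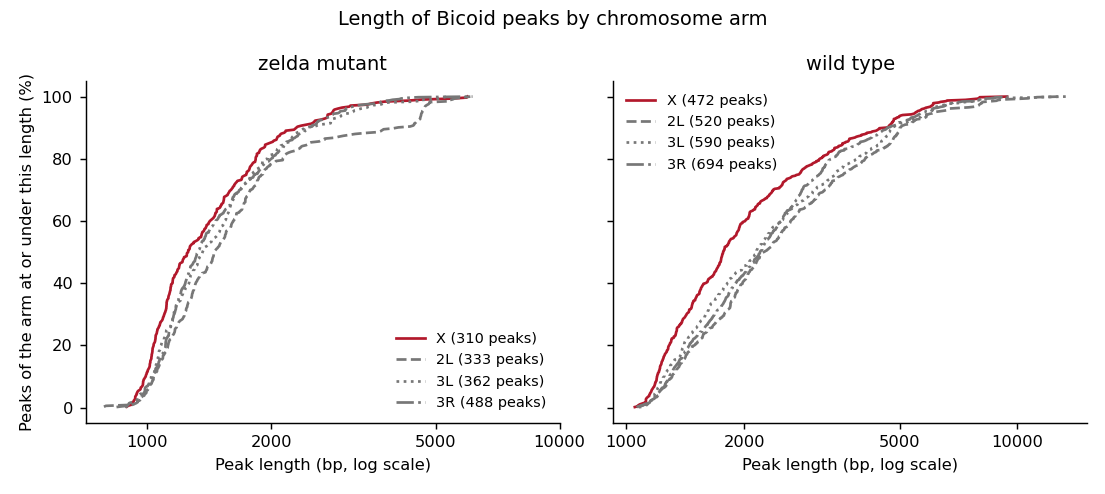
Cumulative share of peaks (in percent) by peak length in bp on a log axis, for X (red) and 3 comparison arms (grey), in zelda mutant (left) and wild type (right). The wild-type X curve runs left of the other arms around its median of 1768 bp, while the mutant curves lie closer together.

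The density of tags inside X peaks was lower too. Mutant X peaks held a median of 132 tags per kb (128 to 135), against 142 on 2L, 137 on 3L and 139 on 3R. Wild-type X peaks held a median of 424 tags per kb (414 to 439), against 468, 453 and 470 on the same arms. Neither interval of X reached a value of the 3 arms. Across X peaks longer peaks also held more tags per kb, with a Spearman correlation of 0.54 over 310 mutant and 0.38 over 472 wild-type peaks. Length and tag density share the same tags, so this is a description only.

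Fold enrichment on X did not share the deficit. Its median was 4.22 on X in the mutant (4.08 to 4.38), above the 3.97 of 2L, 3.89 of 3L and 3.89 of 3R. In wild type it was 5.28 on X (5.10 to 5.61), inside the 5.21 to 5.49 of the 3 arms. The median score on X was 121 in the mutant (104 to 142), inside the 111 to 133 of the 3 arms. In wild type the median score on X was 143 (123 to 159), below the 149 to 173 of the 3 arms. That wild-type interval held the value of 3L. The tag density divided by fold, used as a stand-in for the local background behind a peak, had a median of 31.1 tags per kb on X in the mutant (30.4 to 31.8), against 36.0 on 2L, 35.2 on 3L and 34.8 on 3R. In wild type it was 77.2 on X (75.8 to 78.7), against 84.3, 85.3 and 84.3. X was thus 0.882 times the 3 arms together in the mutant and 0.910 times in wild type, and no interval of X reached an arm. Solving score and fold for the background count by the Poisson tail gave ratios of 0.883 and 0.900. For this count the X interval held the value of 3R in both lists. It was 9.16 to 10.70 against 10.66 in the mutant, and 6.59 to 7.85 against 7.74 in wild type. The values of 2L and 3L lay above it.

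The share of X peaks with the highest folds or scores did not differ from the other arms beyond counting error. A fold of at least 10 was reached by 3 of 310 mutant X peaks (0.968%, 0.330 to 2.81) and by 0.845% of the mutant peaks of the 3 arms, beside 0.83% of the whole mutant list. In wild type it was reached by 25 of 472 X peaks (5.30%, 3.61 to 7.70) and by 3.55% of the peaks of the 3 arms, beside 2.85% of the whole list. The wild-type difference was 1.75 percentage points (-0.19 to 4.27). A score of at least 1000 was reached by 4 mutant X peaks (1.29%, beside 1.51% of the whole mutant list) and by 31 wild-type X peaks (6.57%, beside 5.6% of the whole wild-type list). On the 3 arms together it was 1.94% in the mutant and 7.87% in wild type. Both limits were set with the values known. An FDR of at most 5% was reached by 40 mutant X peaks (12.9%) and by 148 wild-type X peaks (31.4%), against 13.2% and 36.8% of the peaks of the 3 arms. The wild-type difference of -5.45 percentage points had an interval of -10.1 to -0.604.

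X peaks were found in both genotypes about as often as those of the other arms. Shared peaks were those with an overlap of at least 1 bp with any peak of the other genotype. Of the 310 mutant X peaks, 223 were shared, or 71.9% (66.7 to 76.6), against 77.5% on 2L, 72.9% on 3L and 74.2% on 3R, beside 74.7% of the 3 arms together and 62.3% of the whole mutant list. Of the 472 wild-type X peaks, 211 were shared, or 44.7% (40.3 to 49.2), against 45.2% on 2L, 41.2% on 3L and 48.7% on 3R, beside 45.2% of the 3 arms together and 39.6% of the whole wild-type list. The X value was inside the range of the arms in wild type and just under it in the mutant. The difference from the 3 arms together was -2.79 percentage points in the mutant (-8.56 to 2.57) and -0.529 in wild type (-5.52 to 4.53). With a reciprocal overlap of 50% the mutant X share was 56.5% (50.9 to 61.9) and that of the 3 arms 49.8%, so the difference turned to 6.66 percentage points in favour of X (0.413 to 12.8).

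X peaks of higher score were more often shared. In the mutant, 51.6% of X peaks with a score under 100 were shared (66 of 128), 83.6% of those from 100 to under 300 (112 of 134) and 93.8% of those at 300 or more (45 of 48). In wild type the shares of X peaks in the same classes were 29.2% (49 of 168), 50.3% (87 of 173) and 57.3% (75 of 131). The same classes gave 58.8, 84.0 and 89.7% for mutant peaks of the 3 arms and 28.8, 48.4 and 57.8% for wild-type ones, each within the interval of X. Mutant X peaks without a partner had their nearest wild-type summit at a median of 11.2 kb (quartiles 5.28 and 28.4 kb). Wild-type X peaks without a partner had their nearest mutant summit at 24.5 kb (8.99 and 68.7 kb).

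Of the 31 wild-type X peaks with a score of at least 1000, 5 had no mutant partner, or 16.1% (7.09 to 32.6). On the 3 arms together it was 36 of 142, or 25.4%, inside the X interval. The 5 on X had lengths of 1695 to 2718 bp and a median of 2255 bp. The 36 on the arms had lengths of 1778 to 8163 bp and a median of 4198 bp. None of the 5 on X was 5 kb or longer, whereas 15 of the 36 were, made up of 8 on 2L, 2 on 3L and 5 on 3R. With 5 peaks, the difference is a description.

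Where X held 1 mutant and 1 wild-type peak at a place, the pair was closer in length than on the other arms. There were 201 such pairs on X and 757 on the 3 arms. The mutant peak was 0.835 times as long as its wild-type partner on X (median, 0.805 to 0.868), against 0.730 on 2L, 0.752 on 3L and 0.730 on 3R. The X interval lay above all 3. The lengths themselves differed from the other arms on the wild-type side, with medians of 1376 bp in the mutant and 1775 bp in wild type on X, against 1385 to 1472 bp and 2144 to 2344 bp on the arms. The mutant peak was the longer one in 15 X pairs (7.46%) and in 22 of the 757 pairs (2.91%). Among pairs with wild-type peaks of similar length the gap narrowed: the ratio was 0.887 on X (0.861 to 0.921) and 0.861 on the 3 arms (0.836 to 0.877) for wild-type lengths under 1500 bp. From 1500 to under 2500 bp it was 0.834 on X (0.785 to 0.878) and 0.792 on the arms (0.744 to 0.817). At 2500 bp or more it was 0.581 on X (0.451 to 0.717) and 0.506 on the arms (0.478 to 0.540). X thus had the higher ratio in each class, with intervals that overlapped, and more of its pairs fell in the shortest class (32.3%, against 19.3%).

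Summits of the X pairs lay a median of 39 bp apart (32 to 51), against 57 bp on 2L, 47 bp on 3L and 44 bp on 3R, and the X interval held the values of 3L and 3R. They lay within 200 bp of each other in 171 X pairs, or 85.1% (79.5 to 89.3), against 76.7 to 79.4% on the arms. In 19 X pairs the mutant had the higher fold, or 9.45% (6.14 to 14.3), inside the 8.84 to 12.6% of the arms. Median folds on X were 4.38 in the mutant and 5.99 in wild type. The ratio of mutant to wild-type fold on X ran from 0.318 to 1.42, with a median of 0.774. Folds of the 2 lists are set side by side as a description only. The lists differ in depth and have separate controls, which cannot be told apart from genotype here. Folds of the pair members went together on X with Spearman 0.58 and Pearson 0.60 over 201 pairs, against Spearman values of 0.49 to 0.53 on the arms. These are correlations across peaks of 1 list pair, whose members share their libraries.

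**Figure D3:**
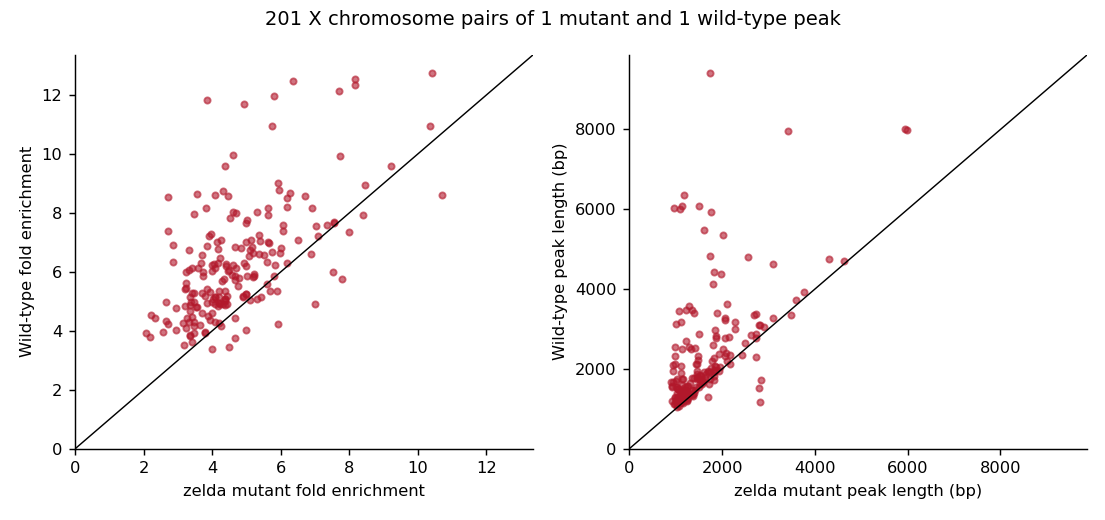
Fold enrichment (left) and peak length in bp (right) of the 201 X pairs, with the zelda mutant value on the horizontal axis, the wild-type value on the vertical axis and a line of equality. Most points lie above the line in both panels. The mutant fold was higher in 19 pairs and the mutant length in 15. The lists differ in depth and control, so their values are not on a common scale.

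The pairs at the ends of the fold ratio on X, chosen after their values were seen, show its range. At X from 12643894 to 12646982 the mutant peak had a fold of 7.01, against 4.93 in its wild-type partner, with 689 and 1868 tags, and the summits were 944 bp apart. A neighbour at X from 12627536 to 12631841 had folds of 7.52 in the mutant and 5.99 in wild type. A weaker pair at X from 652658 to 654017 had folds of 5.93 and 4.25. At the other end, the mutant peak at X from 12100206 to 12101560 had a fold of 2.72, against 8.56 in its wild-type partner, and was 0.388 times as long. The mutant peak at X from 20550885 to 20552180 had a fold of 3.85, against 11.8 in wild type. The first of these held 128 tags in the mutant and 1911 in wild type, and the second held 146 and 1858, over mutant peaks that were also shorter.

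The median distance between neighbouring Bcd peaks on X lay among those of the other arms, while the mean and the longest distance lay above them. The median distance between neighbouring summits was 23.8 kb on X in the mutant (17.2 to 29.9), against 31.4 kb on 2L, 30.0 kb on 3L and 22.0 kb on 3R. In wild type it was 19.1 kb on X (16.5 to 24.3), against 21.7, 21.1 and 15.8 kb. The mean distances on X were 70.2 kb in the mutant and 47.4 kb in wild type, each above the means of the 3 arms, which were 57.3 to 67.9 kb and 40.3 to 44.3 kb. The mean follows from the number of peaks over the span, so it restates the lower density of peaks on X. The longest distance was 796 kb on X in the mutant, against 507 to 747 kb on the arms, and 589 kb in wild type, against 366 to 407 kb.

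A cluster was a chain of summits no more than 10 kb apart. Clusters of 3 or more peaks held 98 of 310 mutant X peaks, or 31.6% (26.7 to 37.0), against 27.9% on 2L, 21.3% on 3L and 25.2% on 3R. The difference from the 3 arms together was 6.85 percentage points (1.31 to 12.7). They held 144 of 472 wild-type X peaks, or 30.5% (26.5 to 34.8), against 29.2, 28.6 and 30.1%, a difference of 1.13 percentage points (-3.39 to 5.89). The mutant interval of X held the value of 2L, and the wild-type interval held all 3 arms. The mutant share of 2L included 1 cluster of 20 peaks, while the largest mutant clusters on 3L and 3R held 8. Mutant 2L also held a run of consecutive peaks of similar length. Their tags per kb over fold, such as 80.0, 72.5 and 76.6, stood above the 2L median of 36.0. Whether these peaks are separate binding sites was not tested, and the 2L share without them was not computed. The size of the difference depended on the distance that joined summits: with 5 kb it was 3.03 percentage points in the mutant and 4.53 in wild type, and with 20 kb it was 5.02 and 2.10. With the same number of peaks on every arm it was 10.5 in the mutant and 5.58 in wild type. X had the fewest peaks, so that setting takes more peaks from the arms and by itself lowers their share in clusters. X was above the 3 arms together at each distance, and which list had the larger difference was not the same in all. There were 26 such clusters on X in the mutant and 37 in wild type, with a median span of 12.1 and 14.5 kb and at most 7 peaks in each list. Single peaks with no neighbour within 10 kb made up 49.0% of mutant and 44.9% of wild-type X peaks.

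**Figure D4:**
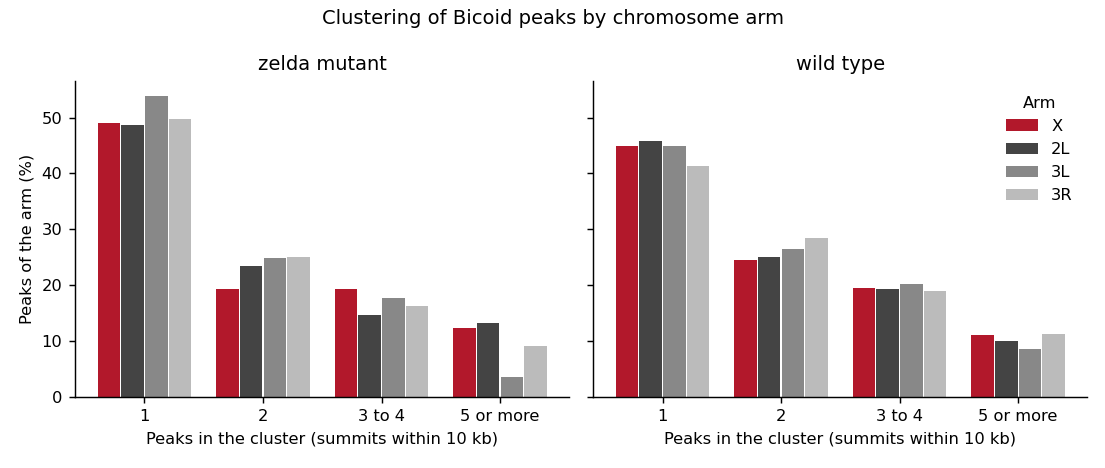
Share of the Bicoid peaks of an arm (in percent) by the number of peaks in their cluster, for X (red) and 3 comparison arms (grey), in zelda mutant (left) and wild type (right). In the mutant 31.6% of X peaks were in clusters of 3 or more, above the 21.3 to 27.9% of the other arms; in wild type the 4 arms lay between 28.6 and 30.5%.

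X peaks in clusters were more often shared than X peaks outside them. In the mutant 81 of 98 clustered X peaks were shared (82.7%, 74.0 to 88.9), against 142 of 212 outside (67.0%, 60.4 to 73.0). In wild type it was 77 of 144 (53.5%, 45.3 to 61.4), against 134 of 328 (40.9%, 35.7 to 46.2). Clustered X peaks also had the higher median score, 181 against 100 in the mutant and 185 against 122 in wild type, so that score and clustering were not separated. On 2L, 3L and 3R clustered peaks were shared in 78.0 to 83.1% of mutant and 44.4 to 55.3% of wild-type cases, and other peaks in 70.2 to 75.4% and 39.9 to 47.4%.

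The largest X clusters were partly the same places in both lists. In the mutant the largest held 7 peaks over 25.3 kb at X from 2186873 to 2212189, with folds of 3.25 to 6.88. Of its peaks 4 were shared. The next held 6 peaks at X from 6747087 to 6763141, all shared, with folds of 2.71 to 6.06. It coincided with a wild-type cluster of 6 peaks from 6746964 to 6763256, also all shared, whose folds were 5.17 to 7.59. Of the 5 mutant clusters of 5 peaks, the first along X ran from 469821 to 487555, with folds of 3.73 to 6.12 and every peak shared. A later one, from 3570640 to 3598952, had 1 shared peak of 5, and was picked as the exception after the values were seen, since the other 4 had 4 or 5.

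In wild type 2 clusters of X held 7 peaks. One ran from 2026040 to 2053574 with folds of 4.10 to 8.75 and 3 shared peaks. The other ran from 20583986 to 20619018 with folds of 3.95 to 8.38 and 2 shared peaks. FDR values in them ran from 0.6 to 16.5% and from 1.63 to 16.4%. The wild-type cluster of 6 peaks at X from 6928371 to 6953876 had the highest median fold of the 5 largest, 9.60, and 3 of its peaks were shared; it too was picked after its values were seen.

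Along X, Bcd peaks were denser in segments 1 and 2 than in segments 3 and 4 when X was divided into 4 equal segments from base 1 on. In that order, the mutant had 16.6, 18.4, 9.46 and 10.9 peaks per Mb. The interval of segment 3, 7.09 to 12.4, lay below those of segment 1 (13.4 to 20.3) and segment 2 (15.0 to 22.3). Wild type had 25.9, 21.4, 17.1 and 19.8 peaks per Mb in the same order, with intervals of 21.8 to 30.5 in segment 1 and 13.9 to 20.9 in segment 3. The segments also differed in how many wild-type peaks had a mutant partner, with 45.5, 61.7, 33.3 and 35.1%. Segment 2 (52.7 to 69.9) lay above segment 3 (24.7 to 43.2) and segment 4 (26.9 to 44.4). Median length in the segments moved little, between 1172 and 1311 bp in the mutant and between 1742.5 and 1841 bp in wild type.

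In bins of 1 Mb, the 22 full bins of X held 2 to 24 mutant peaks (median 14.5) and 11 to 35 wild-type peaks (median 20). The counts of both lists went together less closely on X than on the other arms, with a Spearman correlation over bins of 0.53, against 0.65 on 2L, 0.69 on 3L and 0.81 on 3R, which is a description, since neighbouring bins are not independent. The most mutant peaks, 24, were in the bin from 7 to 8 Mb, and the most wild-type peaks, 35, in the first Mb. The fewest mutant peaks, 2, were in the bin from 14 to 15 Mb, and the fewest wild-type peaks, 11, in that from 12 to 13 Mb, which held 17 mutant peaks. More mutant than wild-type peaks were found in 3 bins, those starting at 7, 8 and 12 Mb.

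The stretch from 14 to 16 Mb, picked for its low mutant count, held 5 mutant and 28 wild-type peaks. Of the 28, 4 were shared, a low number that follows from the choice of the stretch. Their median score was 220, and that of all wild-type X peaks was 143. The widest gap between wild-type summits on X lay within it, 589 kb from 14913544 to 15502433, and held no mutant summit. The mutant had a gap of 720 kb there, from 14799461 to 15518983, with 4 wild-type summits inside. Elsewhere, the widest mutant gap, 796 kb from 20618190 to 21414159, held 7 wild-type summits, and one of 535 kb from 2342080 to 2876612, held 5. The next wild-type gaps were 474 kb from 12648087 to 13121844, with 3 mutant summits inside, and 373 kb from 18206801 to 18579462, with none.

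**Figure D5:**
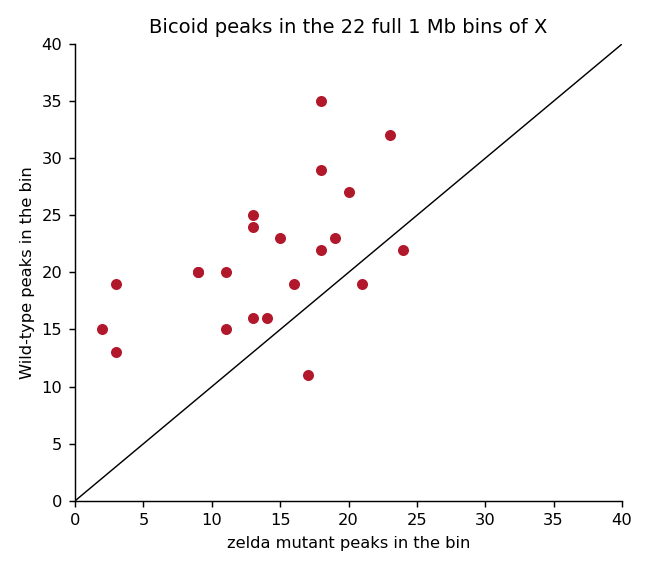
Number of Bicoid peaks in each of the 22 full 1 Mb bins of X, with the zelda mutant count on the horizontal axis, the wild-type count on the vertical axis and a line of equality. Counts run from 2 to 24 in the mutant and from 11 to 35 in wild type, and 3 bins lie below the line.

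The 10 X peaks of highest fold in the mutant, with folds of 7.78 to 10.7, were all shared, beside 71.9% of all mutant X peaks. Of the mutant X peaks with a score of 300 or more, 93.8% were shared. Ranked first, the peak from 8499870 to 8501152 held 329 tags (294 to 367, exact Poisson interval) at a fold of 10.7. Its wild-type partner had a fold of 8.60, with a summit 17 bp away. The peak from 18197467 to 18199297 held 438 tags (398 to 481) at a fold of 10.4, and its partner had a fold of 12.7. Next came 8536765 to 8538389, at a fold of 10.35 in the mutant and 10.95 in wild type, and 6938189 to 6939740, at 9.21 and 9.60. These 4 had summits within 147 bp of those of their partners.

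Among mutant X peaks the highest score, 1521, was that of a broad peak of 4622 bp at X from 9577884 to 9582505, with 983 tags (923 to 1046). Its wild-type partner was almost the same in extent, 4700 bp, with its summit 7 bp away, and the folds were 7.35 in the mutant and 7.61 in wild type. The next, from 2331930 to 2333760, had a score of 1381 and a fold of 8.16 over 1831 bp, while its partner had a fold of 12.5 over 4431 bp. Of the 10 highest by fold and the 10 highest by score, 6 were the same mutant peaks. In wild type it was also 6.

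Only 3 of the 10 X peaks of highest mutant fold overlapped 1 of the 10 of highest wild-type fold, and 2 of 10 did so by score. Of all wild-type X peaks 44.7% were shared, and of those with a score of 300 or more 57.3%. The wild-type peaks of highest fold on X had folds of 11.7 to 13.1, and 9 of the 10 were shared. Their mutant partners ran from a fold of 3.85 to one of 10.4. The highest, at X from 20561279 to 20566175, held 3597 tags (3480 to 3717) and overlapped 3 mutant peaks. The one of highest fold reached 5.93, with its summit 2709 bp from that of wild type. Close by lay the wild-type partner, from 20550518 to 20553063, of the mutant peak of fold 3.85 described above. Another, spanning 15517856 to 15519614, reached 11.96, with a mutant partner at 5.82 whose summit was 2 bp away. A broad peak of 7365 bp from 2320152 to 2327516, sixth by score in wild type, overlapped 2 mutant peaks, of which the one of higher fold, 4.99, was 1183 bp long.

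Of the 10 wild-type X peaks of highest score, 2 had no mutant partner. The peak from 11215545 to 11217799 had a score of 2010 and 1961 tags (1875 to 2050), and the nearest mutant peak lay 1.15 kb from it. The peak from 18578168 to 18580885 had a score of 1652 and 1857 tags (1773 to 1943), with the nearest mutant peak 101 kb away. By fold, the 5 strongest X peaks of the wild-type list only ran from 10.75 to 11.79, with FDR values of at most 0.52%. Of these, the ones spanning 19985735 to 19987272 (fold 10.85) and 14141267 to 14144372 (fold 10.75) had their nearest mutant peaks 202 and 208 kb away. The 5 strongest X peaks of the mutant list only were weaker, with folds of 5.54 to 6.72 and FDR values of up to 10.35%. The strongest of these spanned 3597759 to 3598952 and held 209 tags (182 to 239), and the nearest wild-type peak was 21.9 kb away. The one with the highest score, 574, was at X from 2186873 to 2189233 at the edge of the largest mutant cluster.

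The 5 longest X peaks had folds of 1.91 to 7.52 in the mutant and 2.95 to 8.63 in wild type. In the mutant, the longest spanned 5979 bp from 1825944 to 1831922 (fold 2.19), and the next 5949 bp from 14447250 to 14453198 (fold 2.23). Their wild-type partners spanned 7980 and 8006 bp with folds of 3.78 and 4.55, and ranked 3 and 2 by length on wild-type X. The mutant peak ranked 3 by length, from 12825031 to 12830499, held the most tags of any mutant X peak, 1143 (1078 to 1211), yet had the lowest fold, 1.91, and no wild-type partner within 176 kb. It was a weak call, with an FDR of 11.51% and a score of 73.55, against a median score of 121 for mutant X peaks. The longest wild-type X peak spanned 9405 bp from 21406613 to 21416017, at a fold of 8.63, and held 5915 tags (5765 to 6068), while the mutant peak inside it was 1743 bp long with a fold of 3.56.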

How the data were processed

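Bowtie2, MACS 1.4.2 and build dm3 are named per the submitters' processing notes. Each list was made, per the file headers, from 1 ChIP and 1 control file with a p cutoff of 1e-05, at most 1 tag per position, a band width of 300 bp and the larger dataset scaled towards the smaller. The labels and headers do not give how replicates were joined. The deposited columns are the tag count of a peak (not normalized), its score, its fold enrichment (a ratio) and its FDR in percent. A score of 3100, held by 2 wild-type X peaks, was taken as the value written for p-values too small to compute. Another wild-type X peak stood above it, at 3228. The background count was solved from score and fold for 469 of the 472 wild-type X peaks.

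The lists were split by chromosome. Peaks per Mb used the span from base 1 to the last peak end in either list. Summits were placed at the start plus offset minus 1. Medians have order-statistic 95% intervals, shares Wilson intervals, differences of shares Newcombe intervals and tag counts exact Poisson intervals, all for counting error or spread over peaks only; tags are not independent molecules. Named peaks were the 10 of highest fold and of highest score, the 5 longest and the 5 strongest unshared ones of each list, the 3 largest clusters, the 3 widest gaps and the extreme 1 Mb bins; other clusters and pairs named were chosen after their values were seen. The comparison, the arms and these rules were chosen with earlier results of these data known. The overlap, cluster and interval code was tested on simulated data. Tables and intervals used pandas 2.3.3, scipy 1.17.1 and numpy 2.4.6 under Python 3.11.15; plots used matplotlib 3.10.9. Alternatives varied the score, FDR and length limits, the overlap rule, the cluster distance and the arms.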

Additional observations from a re-analysis of the deposited data

How the results depend on the processing

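X had fewer peaks per Mb than the 3 arms together under all 9 alternatives in each list, with ratios of 0.842 to 0.947 in the mutant and 0.751 to 0.903 in wild type; the lowest, 0.751, came with an FDR of at most 5%. The median length of wild-type X peaks stayed at 0.792 to 0.851 times that of the arms in 7 alternatives. In the mutant it was 1.03 times with an FDR of at most 5%, where X peaks were the longer ones, and lower in the other 6. With that FDR limit the fold ratio was 1.03 in the mutant and 1.08 in wild type, the ratio of tags per kb 0.966 in wild type, and that of tags per kb over fold 0.905 in the mutant. Tags per kb in the mutant had a ratio of 0.915 with a score of at least 100. The mutant difference in shared peaks, X minus the arms, was 6.66 percentage points for 50% reciprocal overlap, 3.15 for summits at most 200 bp apart, 5.26 with an FDR of at most 5% and 4.09 with a score of 300 or more. With the same number of peaks on every arm, the median distance between summits on X was 0.703 times that of the arms in the mutant and 0.712 times in wild type, against 0.926 and 1.00 with all peaks. This setting thins the arms more than X, which had the fewest peaks, and by itself widens the distances on the arms. The lower distance ratios therefore cannot show whether summits on X lie closer together. The cluster difference ran from 3.03 to 10.5 percentage points in the mutant and from 2.10 to 5.58 in wild type. Its highest value in each list came from the same setting. No cause was tested for the remaining shifts. Adding 2R to the length, tag, fold and overlap results, the limits of 5 kb and of score 300, the FDR limit for tags per kb over fold and the pair settings were chosen after seeing the data. No paired analysis was possible because each genotype has a single list without replicate values; for that reason leaving out replicates was not run. A peak missing from the mutant list may lie below detection at its 10060479 tags.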

Other observations

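Outside the X arm, the heterochromatic X scaffold held 3 peaks in each list. One place was found in both, from 194307 to 197733 in the mutant with a fold of 6.42 and 654 tags, and from 194207 to 197462 in wild type with a fold of 6.86 and 1390 tags. The other 2 mutant peaks lay within 10 kb of it with folds of 2.13 and 3.17, and the other 2 wild-type peaks, with folds of 4.02 and 6.15, lay further away, starting at 38505 and 67841.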
